A study of Mus musculus with 6 samples.

Results

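Cholecystokinin (Cck), gastrin (Gast) and their receptors Cckar and Cckbr were described in sorted mouse intestinal cells. They are 4 of the 18193 genes measured and have 5 probe sets, found as every probe set of the array annotated with only that gene's symbol. Where a gene has several probe sets, the brightest by its 6-array mean stands for it, which mattered only for Cckbr, the gene with 2. The arrays measured total RNA from cells of the intestine of adult CCK-EGFP transgenic Swiss Webster mice, in 2 groups of 3. The CCK-EGFP group holds cells sorted for the fluorescence of enhanced green fluorescent protein (EGFP), and the non-EGFP group holds an equal number of non-fluorescent cells. Both groups come from animals that carry the transgene, and there is no group without it. The labels do not give the construct that drives EGFP, the segment of intestine, or how many mice gave the samples. The p-values therefore cover only the spread among these 6 samples, part or all of which may be technical.

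Cholecystokinin and gastrin are sister hormones whose active peptides end in the same amidated stretch. Each is cut from a longer precursor in the secretory granules of enteroendocrine cells, cholecystokinin mainly in I cells of the upper small intestine and gastrin mainly in G cells of the stomach antrum. The receptor encoded by Cckar prefers sulfated cholecystokinin and is known from pancreatic acinar cells, gallbladder muscle and vagal nerve endings. The receptor encoded by Cckbr binds both hormones and is known from parietal and enterochromaffin-like cells of the stomach and from the brain. The series title concerns cholecystokinin release after fat, and the comparison asks how the fluorescent cells differ in expression from their neighbours.

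Values are log2 intensities made by RMA, on which a difference of 1 is a doubling of signal. A background level of 4.60 was set from 71 olfactory and vomeronasal receptor genes, families known mainly from the nose, as the 95th percentile of their means. Array medians ran from 5.66 to 5.72 (CCK-EGFP) and from 5.37 to 5.55 (non-EGFP). The sort was checked on markers of the cell types. Of 8 measured enteroendocrine markers, 8 were higher in CCK-EGFP cells and 0 lower (limma, adjusted p under 0.05). At an unadjusted p under 0.05, 0 were lower. The shares over all genes were 14.0% higher and 10.2% lower, and 21.0% lower at the unadjusted p. The marker list mean per array was 12.42 to 12.56 against 6.78 to 7.75. The granule proteins Chga and Chgb stood at 13.94 and 13.74 in CCK-EGFP cells and still at 10.53 and 11.57 in non-EGFP cells, both with limma adjusted p of at most 0.000539. Enterocyte markers were bright in both groups, with the mean over 9 markers at 12.70, 12.79 and 13.34 on CCK-EGFP replicates 1, 2 and 3 and at 13.62 to 13.67 on the non-EGFP arrays. Replicate 3 of the CCK-EGFP cells thus lay nearest to the non-fluorescent cells on this list.

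The upstream sequences of both hormone genes are shown so that the elements near each start can be read beside the factors described further on. Each run holds the 250 bases before the start of the gene, 5′ to 3′ on the gene's own strand, from RefSeq promoter windows of build GRCm38.p6. Capitals mark matches to any of 7 motifs, each spelled out with its share of windows after the sequences and searched on both strands, with overlaps allowed. The Cck window lies on the minus strand at chr9:121495695-121495944 and the Gast window on the plus strand at chr11:100334157-100334406.
Cck: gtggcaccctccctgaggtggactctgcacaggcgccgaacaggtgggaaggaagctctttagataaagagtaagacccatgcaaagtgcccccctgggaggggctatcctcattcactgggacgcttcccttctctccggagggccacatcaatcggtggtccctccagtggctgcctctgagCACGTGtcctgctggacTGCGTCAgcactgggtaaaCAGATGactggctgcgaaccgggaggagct
Gast: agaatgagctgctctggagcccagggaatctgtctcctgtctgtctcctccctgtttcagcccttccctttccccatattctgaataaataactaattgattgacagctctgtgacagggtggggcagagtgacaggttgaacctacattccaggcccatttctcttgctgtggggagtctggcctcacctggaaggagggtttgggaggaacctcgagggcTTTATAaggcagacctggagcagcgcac
The Cck window held 3 matches. CACGTG, the E-box bound by USF factors, stood 66 to 61 bases before the start and occurred in 6.02% of 32851 windows of the same length. TGCGTCA, a combined cAMP and phorbol ester response element, stood 49 to 43 bases before the start and occurred in 1.75% of windows. CAGATG, an E-box bound by NEUROD1, stood 30 to 25 bases before the start and occurred in 14.4% of windows. The Gast window held TATAAA on the opposite strand, 28 to 23 bases before the start, a motif found in 12.4% of windows, and none of the other 6. The gene strand reads TTTATAAGG at that place, and the search took exact matches only. The Cckbr window also held CACGTG, although Cckbr lay near background in these cells. The cAMP response element TGACGTCA occurred in 1.55% of windows, the AP-1 element TGACTCA in 4.46% and the GC box GGGCGG in 32.7%, and none of them matched any of these 3 windows. The motifs were picked as textbook elements of hormone gene promoters, and a match is a description of letters only.

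Of the hormone and receptor genes, Cck alone passed the test. It was far higher in the fluorescent cells, Gast was higher on average without passing, and both receptors lay below or close to the background level in both groups. By limma with Benjamini-Hochberg adjustment over all genes, 1 of 4 was higher (14.0% of all genes were) and 0 of 4 lower (10.2% of all genes were). At an unadjusted p under 0.05, 2 were higher and 0 lower, where 19.7% and 21.0% of all genes were. The groups did not overlap for any of the 4, with 2 higher and 2 lower, where 21.8% and 28.1% of all genes were separated in those directions.

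**Figure D1:**
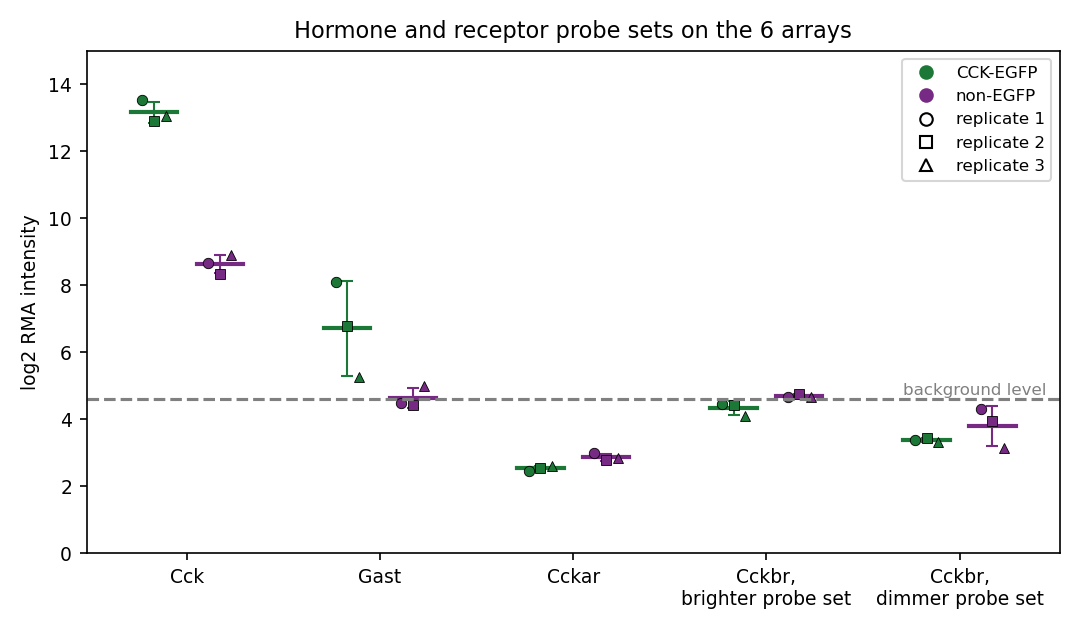
Log2 RMA intensity of the 5 probe sets on each array, with CCK-EGFP cells in green, non-EGFP cells in purple, a marker shape for each replicate number, a bar for the group mean, whiskers for 1 SD and a dashed line at the background level of 4.60. Cck is separated by 4.01 between the nearest arrays, Gast spreads from 5.26 to 8.09 in CCK-EGFP cells, and the receptor probe sets lie near or below the dashed line.

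Cck, the hormone gene for which the transgene is named, read 13.52, 12.90 and 13.06 in CCK-EGFP cells and 8.65, 8.35 and 8.89 in non-EGFP cells. All CCK-EGFP arrays were high, and the lowest of them lay 4.01 above the highest non-EGFP array. The means were 13.16 ± 0.32 (SD, n = 3) and 8.63 ± 0.27 (SD, n = 3), a log2 difference of 4.53 (SE 0.25, limma adjusted p = 0.000192). This is 23.2-fold higher, with a 95% interval of 15.3-fold to 35.1-fold. Since the cells were sorted on the EGFP of a transgene named for Cck, the difference is a check of the sort. Cck ranked 242nd by size of difference among all genes, and at 13.16 it lay above the 99th percentile of each CCK-EGFP array (12.83 to 12.85) and below the array maxima of 14.71 to 14.75. No probe set of Cck is dim in non-EGFP cells, where all 3 arrays were above the background level. In a pool of sorted cells, a few cells with much Cck RNA and many cells with little cannot be told apart. The difference between arrays of the same number was 4.87, 4.56 and 4.17, and leaving out any array kept it between 4.36 and 4.66.

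Gast, the gastrin gene, read 8.09, 6.79 and 5.26 in CCK-EGFP cells and 4.49, 4.42 and 4.99 in non-EGFP cells. The CCK-EGFP arrays lay far apart from each other, and the lowest of them was only 0.27 above the highest non-EGFP array, so the groups did not overlap but nearly met. The means were 6.72 ± 1.41 (SD, n = 3) and 4.63 ± 0.31 (SD, n = 3), the latter at the background level, with 1 of its 3 arrays above it. The log2 difference of 2.08 (SE 0.67, 95% interval 0.46 to 3.70) did not pass the test (limma adjusted p = 0.0672). The point estimate is 4.23-fold, with an interval of 1.38-fold to 13.0-fold.

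The spread of Gast among CCK-EGFP arrays stood out against other genes. Its SD of 1.41 exceeded that of 97.9% of the 12797 genes with a CCK-EGFP mean above background, whose median SD was 0.27. The SD of Cck in the same arrays, 0.32, exceeded 58.0% of them. In non-EGFP cells the SD of Gast, 0.31, exceeded 43.2% of genes above background there. Gast was lowest on CCK-EGFP replicate 3, where the enterocyte marker mean was highest, while the enteroendocrine marker mean on replicates 1, 2 and 3 was 12.56, 12.42 and 12.47 and Cck was 13.06 on that array. The part of the enterocyte level in the Gast values was not tested.

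The Gast call turned on that array. Without CCK-EGFP replicate 3 the log2 difference was 2.81 (limma adjusted p = 0.0115), and with array weights, which give arrays that vary more a smaller say, it was 2.36 (limma adjusted p = 0.0438). Under the other alternatives it stayed above 0.05, down to a difference of 1.39 without CCK-EGFP replicate 1 (limma adjusted p = 0.128).

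**Figure D2:**
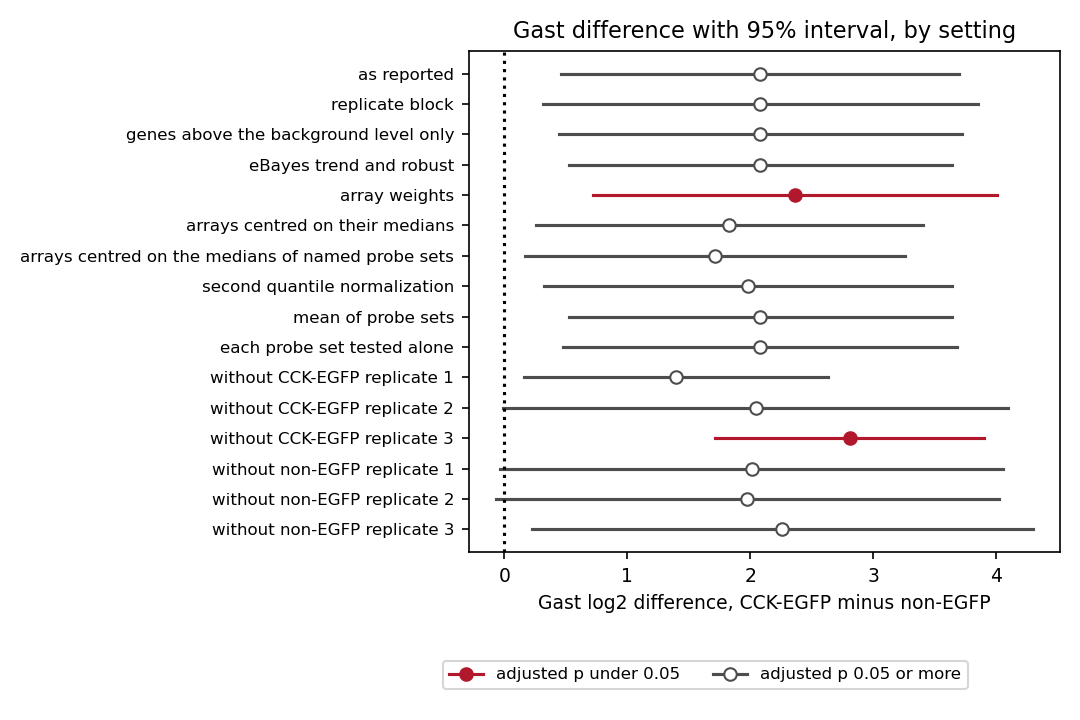
Log2 difference of Gast, CCK-EGFP minus non-EGFP, as a point with its 95% interval from limma, under the reported setting and each alternative, with filled red points where the adjusted p was under 0.05. All estimates are above 0, from 1.39 to 2.81, and 2 of them pass the test.

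Cckar, the receptor that prefers cholecystokinin, read 2.47, 2.54 and 2.60 in CCK-EGFP cells and 2.98, 2.77 and 2.84 in non-EGFP cells. All 6 arrays were below the background level, and the CCK-EGFP arrays were the lower ones without overlap. The log2 difference was -0.33 (SE 0.17, 95% interval -0.74 to 0.08, limma adjusted p = 0.188). A fold is not given, because neither group had a mean above background.

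Cckbr, the receptor shared by both hormones, read 4.47, 4.41 and 4.09 in CCK-EGFP cells and 4.65, 4.75 and 4.65 in non-EGFP cells on its brighter probe set. The non-EGFP arrays lay just above the background level and the CCK-EGFP arrays just below it, again without overlap. The log2 difference was -0.36 (SE 0.19, 95% interval -0.81 to 0.09, limma adjusted p = 0.191). Its other probe set read 3.36, 3.43 and 3.32 against 4.31, 3.93 and 3.15, below background on every array, and there the groups overlapped.

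Small negative differences of this kind were common among dim genes. Of 4609 genes with both means below the background level, 86.6% had a negative difference, with a median of -0.37 and quartiles of -0.55 and -0.17. Among the 71 olfactory and vomeronasal receptor genes the median was -0.35, and 29 of them (40.8%) were lower in CCK-EGFP cells without overlap. Over all genes the median was -0.17, 58.3% had a negative difference and 28.1% were lower without overlap. The receptors' values of -0.33 and -0.36 thus lay between the quartiles of the dim genes. Cckbr is not itself one of these, since its non-EGFP mean of 4.69 was just above the background level. With arrays centred on the medians of their named probe sets, an alternative chosen after seeing the data, the median of all genes moved by -0.37. On that scale Cckar (-0.70) and Cckbr (-0.73) passed as lower (limma adjusted p = 0.0419 and 0.0418), and with arrays centred on the medians of all probe sets they did not (limma adjusted p = 0.0619 and 0.0707).

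Markers of cells known for these receptors were read beside them. Of 9 measured pancreatic acinar markers, 5 had both means below background, and the mean over the list was 4.16 to 4.34 in CCK-EGFP and 4.72 to 4.78 in non-EGFP cells. The defining acinar gene Ptf1a was below background in both groups, while the elastase Cela1 read 9.56 and 8.64. Of 10 measured gastric markers, 4 had both means below background, among them Atp4a, the catalytic subunit of the parietal cell proton pump, and Cblif, the intrinsic factor gene. Others were above it in both groups, among them the pump's beta subunit Atp4b at 5.10 and 5.92, Hdc, the histamine-forming enzyme of enterochromaffin-like cells, at 7.39 and 6.50, and Tff2 at 4.99 and 5.38, and Pgc read 11.54 in CCK-EGFP cells. The mean over the gastric list was 4.68 to 4.92 against 4.55 to 5.06. These means do not show that the groups were alike, since Pgc alone was higher by 6.96 while the list's median log2 difference was -0.63. Of 6 smooth muscle markers, 3 had both means below background, and the list mean was 4.10 to 4.37 against 4.64 to 5.35.

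Genes around the hormones and receptors were grouped by role. Over all genes 14.0% were called higher and 10.2% lower, shares to set beside the count of each list. At an unadjusted p under 0.05 the shares were 19.7% higher and 21.0% lower. Of 10 precursor processing genes 9 were measured, and 7 were higher, 0 lower and 2 not past the test (limma, with 0 lower at an unadjusted p under 0.05). The median log2 difference was 3.24, against -0.17 for all genes. The convertase Pcsk1, which makes the first cuts in the precursors, read 12.28, 12.52 and 11.28 against 8.11, 8.50 and 6.47. The groups stood well apart, with a log2 difference of 4.34 (SE 0.59, limma adjusted p = 0.00464), or 20.2-fold, which was 13.2-fold without non-EGFP replicate 3. Its inhibitor Pcsk1n was higher by 5.54, and Scg5, the 7B2 chaperone of the related convertase encoded by Pcsk2, by 5.16 (limma adjusted p = 0.000718 and 0.0011).

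Both tyrosine sulfotransferases, which add the sulfate that Cckar recognises, were higher. Tpst1 read 10.59, 10.82 and 10.07 against 5.22, 5.26 and 5.39, with no array of the groups near the other. The difference of 5.20 on the log2 scale (SE 0.24, limma adjusted p = 0.000106) is 36.8-fold. Tpst2 stood at 10.34 ± 0.46 (SD, n = 3) against 8.05 ± 0.25 (SD, n = 3), a difference of 2.29 (limma adjusted p = 0.00327). Pam, the enzyme that amidates the carboxyl end of both hormones, is named outside the rule for genes because of that role and was chosen after its values were seen. It read 12.06, 11.96 and 11.59 against 9.88, 9.94 and 9.22, a difference of 2.20 (SE 0.27, limma adjusted p = 0.00297). The carboxypeptidase Cpe, which trims basic residues after the convertases, was higher by 3.24 (limma adjusted p = 0.000737), and by 1.01 on its lower probe set. The broadly expressed Cpd and cathepsin L (Ctsl) differed by 0.14 and 0.29 (limma adjusted p = 0.729 and 0.809), with overlapping groups. Their probe sets disagreed, from -0.80 to 1.51 for Cpd and from -0.52 to 0.29 for Ctsl.

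**Figure D3:**
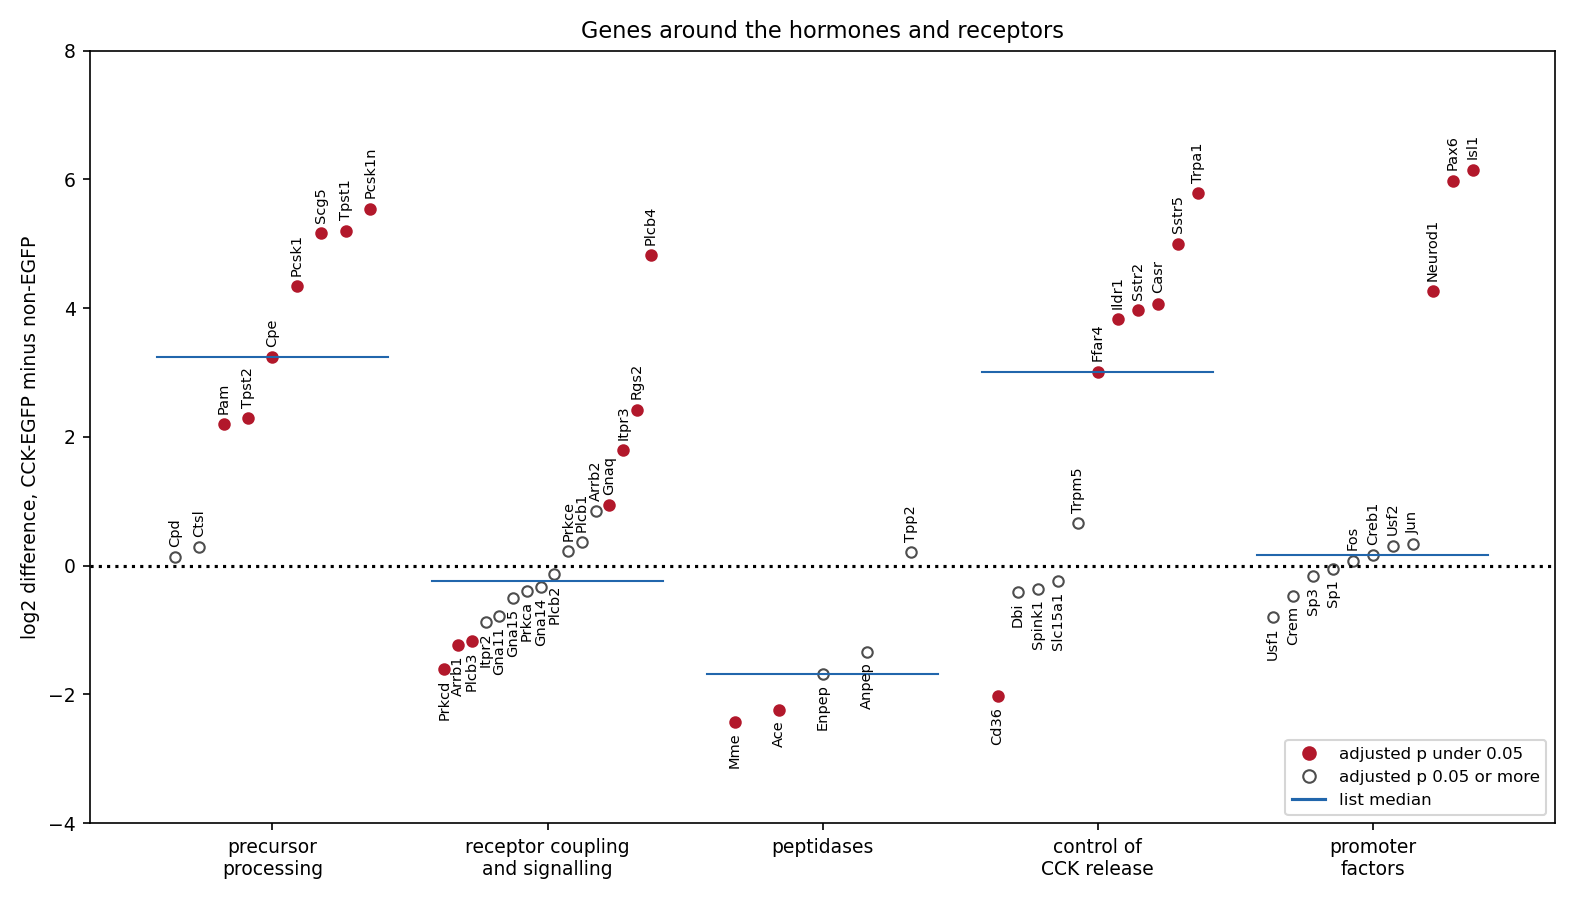
Log2 difference, CCK-EGFP minus non-EGFP, of each measured gene in the 5 lists, with filled red points where the limma adjusted p was under 0.05, open points elsewhere and a blue line at each list's median. Processing genes lie at or above 0.14, peptidases reach down to -2.42, and the promoter factors split into Pax6, Isl1 and Neurod1 above 4 and the remaining 8 between -0.79 and 0.33.

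Several receptors and channels that act on cholecystokinin release were higher in CCK-EGFP cells. Of 14 listed 11 were measured, and 6 were higher, 1 lower and 4 not past the test, with a median of 3.02. Of all genes, 14.0% were higher and 10.2% lower. Trpa1, an irritant-gated cation channel of endocrine cells, read 10.55, 11.00 and 10.35 against 4.38, 5.05 and 5.11. All CCK-EGFP arrays were far above the non-EGFP arrays, with a log2 difference of 5.79 (SE 0.29, limma adjusted p = 0.000145). The somatostatin receptor Sstr5, a brake on hormone release, stood at 10.33 ± 0.48 (SD, n = 3) against 5.33 ± 0.41 (SD, n = 3) and was 32.0-fold higher (limma adjusted p = 0.000349). Its relative Sstr2 read 9.14, 8.73 and 7.76 against 7.10, 2.86 and 3.76, at least 15.4-fold higher by the background level (limma adjusted p = 0.0411). That call ended when any array except non-EGFP replicate 1 was left out (limma adjusted p = 0.0644 to 0.121) and with a second quantile normalization (0.0538). Without non-EGFP replicate 2 the non-EGFP mean was above background and the fold was 8.65.

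The calcium-sensing receptor Casr, which responds to amino acids, stood at 7.65 ± 0.29 (SD, n = 3) against 3.58 ± 0.30 (SD, n = 3), at least 8.29-fold higher by the background level. Its other probe set differed by 0.05. Ildr1, the gene of the series title, read 6.94, 7.17 and 6.79 against 2.86, 3.28 and 3.29, at least 5.17-fold higher by the background level (limma adjusted p = 0.000194). Ffar4, the receptor for long-chain fatty acids, read 9.43, 9.60 and 9.62 against 7.84, 5.80 and 5.97, a log2 difference of 3.02 (SE 0.54, limma adjusted p = 0.0113), or 8.09-fold, which was 12.7-fold without non-EGFP replicate 1. The 1 lower gene was the fatty acid transporter Cd36, at 9.59 against 11.62 (limma adjusted p = 0.0105). Dbi and Spink1, which encode luminal peptides that release cholecystokinin, stood above 13.0 in both groups and did not pass (limma adjusted p = 0.138 and 0.195), nor did the peptide transporter Slc15a1 (0.358) or the channel Trpm5 (0.156). Dbi passed as lower with trend and robust eBayes (limma adjusted p = 0.0312).

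Transcription factors tied to the Cck or Gast promoter fell into those of the endocrine lineage and those found in most cells. Of 11 measured, 3 were higher, 0 lower and 8 not past the test (limma, with 0 lower at an unadjusted p under 0.05), with a median of 0.17. The shares over all genes were 14.0% higher and 10.2% lower, and 21.0% lower at the unadjusted p, with a median of -0.17. The 3 higher genes, Neurod1, Isl1 and Pax6, are also among the enteroendocrine markers counted above. Neurod1, the basic helix-loop-helix factor of endocrine cells, read 12.85, 12.57 and 12.55 against 8.30, 8.55 and 8.33. The groups lay far apart, with a log2 difference of 4.26 (SE 0.19, limma adjusted p = 0.000104) and 5.88 on its other probe set. The LIM factor Isl1 was higher by 6.15 and the paired-box factor Pax6 by 5.98 (limma adjusted p = 0.000594 and 0.00156), with Pax6 probe sets from -0.25 to 5.98. Usf2, which binds the CACGTG E-box printed above, differed by 0.31 (SE 0.19, limma adjusted p = 0.262), and by 1.26 on its other probe set. Fos and Jun, the AP-1 factors, were bright in both groups (13.55 and 13.48 for Fos, 12.30 and 11.97 for Jun) and did not pass (limma adjusted p = 0.764 and 0.381), and Sp1 differed by -0.05 (limma adjusted p = 0.851).

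Genes downstream of the receptors were called in both directions. Of 16 measured coupling and signalling genes, 4 were higher, 3 lower and 9 not past the test. Of all genes, 14.0% were higher and 10.2% lower. The list median of -0.24 was close to the -0.17 of all genes. The phospholipase Plcb4 read 10.89, 11.17 and 10.82 against 8.05, 4.64 and 5.72, a log2 difference of 4.82 (SE 0.81, limma adjusted p = 0.00924). The fold was 28.3, and it was 54.9 without non-EGFP replicate 1 and 16.8 without non-EGFP replicate 2. The non-EGFP arrays were spread widely below the CCK-EGFP arrays, and its probe sets differed by 0.73 to 4.82. Rgs2, which shuts off Gq, was higher by 2.43 and the calcium release channel Itpr3 by 1.80 (limma adjusted p = 0.0013 and 0.0117). The kinase Prkcd fell by 1.61, the arrestin Arrb1 by 1.23 and the phospholipase Plcb3 by 1.17 (limma adjusted p = 0.00538, 0.0156 and 0.0462). Probe sets ran from 0.82 to 2.49 for Rgs2 and from -2.82 to -1.61 for Prkcd. The Plcb3 call ended when any array except CCK-EGFP replicate 3 was left out (limma adjusted p = 0.0802 to 0.14), with the second quantile normalization (0.0549) and with each probe set tested alone (0.0541), and the Arrb1 call ended without CCK-EGFP replicate 1 or 2 (0.0599 and 0.0676). Without either of those 2 arrays the list held 4 calls in place of 7, having lost Arrb1, Plcb3 and Gnaq. Gnaq, the alpha subunit through which these receptors act, is the fourth higher gene, was chosen after its values were seen, and differed by 0.94 (limma adjusted p = 0.0157), with probe sets from -1.30 to 1.66. Its call also ended without CCK-EGFP replicate 1 or 2 (limma adjusted p = 0.0661 and 0.0634), with arrays centred on all or on named probe sets (0.0574 and 0.0906) and with the mean of probe sets (0.058). The related subunit Gna11 differed by -0.78 and the calcium release channel Itpr2 by -0.87 (limma adjusted p = 0.0604 and 0.0588), the latter passing with the replicate number as a block (0.0368). Itpr2 also passed with the second quantile normalization (limma adjusted p = 0.0419) and without non-EGFP replicate 1 (0.0455), but its probe sets ran from -1.89 to 0.86. Gna11 passed with trend and robust eBayes (limma adjusted p = 0.0239), and both passed with array weights (0.0426 and 0.048) and with either centring. The Gna11 probe sets ran from -1.34 to -0.78. Prkca (-0.39) and Prkce (0.22) did not pass (limma adjusted p = 0.527 and 0.552), with Prkce probe sets from -0.30 to 0.22.

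Peptidases that cut cholecystokinin or gastrin were lower or did not pass the test. Of 5 measured, 0 were higher, 2 lower and 3 not past (limma, with 0 higher and 4 lower at an unadjusted p under 0.05, where 21.0% of all genes were lower), with a median of -1.68. By the adjusted p, 10.2% of all genes were lower. Neprilysin (Mme) read 8.08, 7.94 and 10.02 against 10.85, 11.27 and 11.20, a log2 difference of -2.42 (SE 0.56, limma adjusted p = 0.0253). It was 5.36-fold lower, and 8.52-fold lower without CCK-EGFP replicate 3. The highest CCK-EGFP value was that of replicate 3, the array with the highest enterocyte marker mean, and the same array was the highest for Ace (9.21, 10.08 and 11.19 against 12.10, 12.89 and 12.22). Ace, the angiotensin-converting enzyme, differed by -2.24 (SE 0.51, limma adjusted p = 0.0248). Aminopeptidases A (Enpep) and N (Anpep) differed by -1.68 and -1.33 (limma adjusted p = 0.0593 and 0.07), and tripeptidyl peptidase Tpp2 by 0.21 (0.446). The Tpp2 probe sets ran from -1.18 to 0.21. Enpep passed with the replicate number as a block (limma adjusted p = 0.0289) and with array weights (0.0395). The count of 2 fell to 0 when replicate 1 or 2 of either group was left out, was 1 without non-EGFP replicate 3 and rose to 4 without CCK-EGFP replicate 3. Mme, Ace, Enpep and Anpep are found on the brush border of enterocytes, and the part of the enterocyte level in their values was not tested.

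The genes nearest to each member were found by a distance, the root mean square difference over the 6 arrays between log2 values after each gene's mean was subtracted, among genes with a mean above background. A pattern and a size of difference like those of the member follow from that choice. Nearest to Cck were Tril (0.19), the peptide hormone gene Pyy (0.20), Dmxl2 (0.20), Trim35 (0.23) and the synaptotagmin Syt11 (0.23), where the median gene lay at 2.28. Pyy read 13.90, 13.70 and 13.86 against 9.65, 9.23 and 9.52. It followed Cck closely in size, with a log2 difference of 4.35 (SE 0.19, limma adjusted p = 0.000105) beside 4.53. The lowest probe set differences were 0.26 for Trim35, 1.99 for Syt11 and 2.31 for Tril.

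Nearest to Gast were Mn1 (0.15), B330016D10Rik (0.30), the zinc finger gene Zfp316 (0.38), the Wnt ligand Wnt9a (0.39) and the centrosomal gene Cep290 (0.39), where the median gene lay at 1.39. Mn1, a transcriptional regulator, read 6.93, 5.74 and 4.41 against 3.58, 3.71 and 4.19. By the choice of nearest genes, Mn1 shares with Gast a high CCK-EGFP replicate 1 and a replicate 3 close to the non-EGFP arrays. It did not pass (limma adjusted p = 0.0693) except without CCK-EGFP replicate 3 (0.014) and with array weights (0.0467). Cep290, B330016D10Rik and Zfp316 passed at 2.51, 2.47 and 1.76 (limma adjusted p = 0.0287, 0.0187 and 0.0471). The call of Cep290 was lost when replicate 1 or 2 of either group was left out (limma adjusted p up to 0.0875). That of B330016D10Rik was lost without CCK-EGFP replicate 2, non-EGFP replicate 1 or non-EGFP replicate 2 (limma adjusted p up to 0.0662). Zfp316 was lost when any array except CCK-EGFP replicate 3 was left out (limma adjusted p up to 0.146), with the replicate number as a block (0.0806), with either centring (0.0558 and 0.0563) and with each probe set tested alone (0.0532). Wnt9a did not pass (limma adjusted p = 0.199) except without CCK-EGFP replicate 3 (0.0397), and its other probe set differed by -0.52. Nearest to Cckbr were Nfxl1 (0.03), gelsolin (Gsn, 0.04), Cebpg (0.05), Prkag1 (0.05) and Dnttip1 (0.05). On their brightest probe sets all lay within 0.40 of no difference and none passed the test. The lowest probe set differences were -1.57 for Dnttip1, -1.02 for Nfxl1, -0.90 for Cebpg, -0.58 for Gsn and -0.32 for Prkag1. Cckbr itself had a 6-array mean of 4.50, below background, and was matched because its non-EGFP mean was above it. Cckar was below background in both groups and was not matched.

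**Figure D4:**
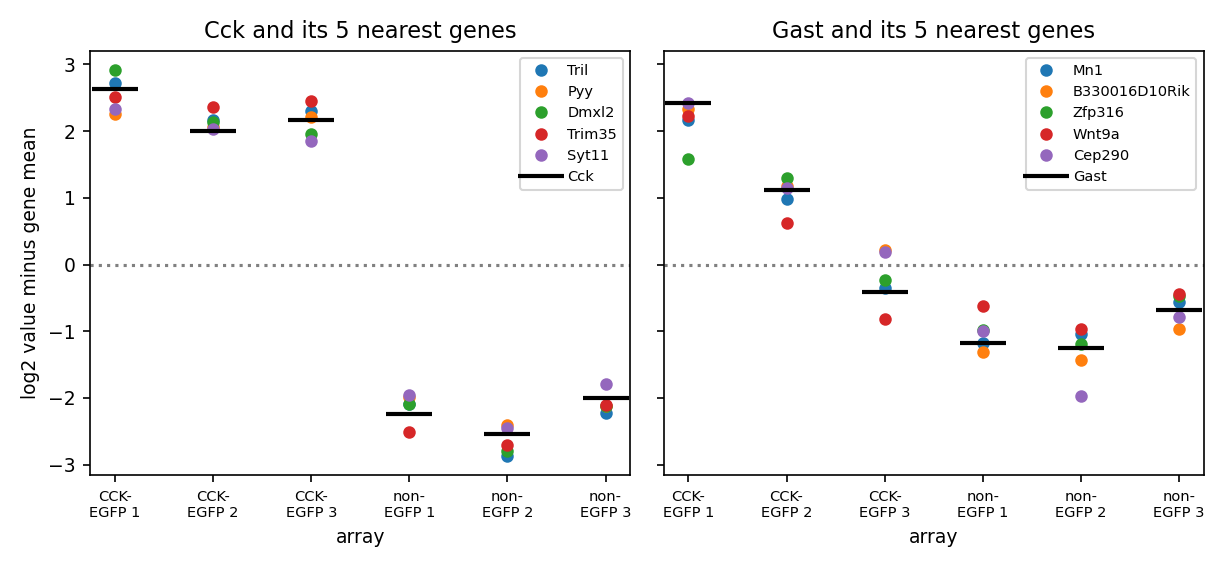
Log2 value minus the gene's mean over 6 arrays, on each array, for Cck (left, black bars) and Gast (right, black bars) with the 5 nearest genes of each as coloured points. Cck forms a high and a low level with the groups, whereas Gast is spread over the CCK-EGFP arrays. The nearest genes were chosen on these same values, so their likeness follows from the choice.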

How the data were processed

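RNA of the 6 samples was amplified from picograms and labelled with biotin, per the labels' protocols, and read on an Affymetrix mouse array. The authors deposited 1 table of log2 intensities for 45101 probe sets. Per the submitters' processing notes they were made with RMA, a method of background correction, quantile normalization and probe summary. For its version the sources used here give nothing, the log2 scale was taken from the range of 1.47 to 14.80, and RMA gives no detection call. The number of arrays limits the precision. Names came from the annotation of the platform, where 34945 probe sets had 1 gene symbol, 932 had several, 64 were controls and 9160 were unlisted. Gene IDs of 34741 matched RefSeq (GRCm38.p6), which changed 0 symbols.

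The test of CCK-EGFP against non-EGFP was that of limma 3.58.1 (R 4.3.3), run two-sided with lmFit and eBayes, with Benjamini-Hochberg adjustment over 18193 genes and a threshold of 0.05, and was tested on simulated data. A fold against a group mean below background was computed against the level. Folds called "at least" are such bounds on the group means and do not cover the spread among arrays. Tables were made with Python 3.11.15 and pandas 2.3.3. The members, gene lists, naming rule and alternatives were chosen with earlier results of these data known. Named are the members, Ildr1, up to 6 called and 4 uncalled genes of each pathway list, up to 3 genes of each marker list and the 5 genes nearest to each member above background. Named outside that rule, after their values were seen, are Pam, Gnaq, Cd36, Atp4a, Cblif, Tff2, Gkn2, Prss2, Ptf1a and Gfap. Alternatives were the replicate block, a background filter, eBayes settings, array weights, centring, a second quantile normalization, other probe set rules and leaving out each array. Samples carry the numbers 1 to 3 in each group's labels. Deviations from group means, across genes, correlated at 0.27, 0.159 and 0.219 between same-numbered arrays and at -0.245 to -0.0109 between others, so same-numbered arrays were treated as pairs in the block. The fit had been fixed without the block.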

Additional observations from a re-analysis of the deposited data

How the results depend on the processing

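The direction of all 4 hormone and receptor genes held under every alternative run. Cck stayed past the threshold, with differences of 4.16 to 4.66 over all settings. Leaving out 1 array gave 4.36 to 4.66 for Cck, 1.39 to 2.81 for Gast, -0.38 to -0.27 for Cckar and -0.44 to -0.24 for Cckbr. Gast passed with array weights (2.36) and without CCK-EGFP replicate 3. Cckar (-0.70) and Cckbr (-0.73) passed with arrays centred on named probe sets, a setting that shifts all genes down by construction. The second quantile normalization moved Cckar to -0.074 (limma adjusted p = 0.784). Centring on named probe sets gave 7142 calls over all genes, 2027 higher and 5115 lower, against 4391 (2540 and 1851), and centring on all probe sets gave 2101 higher and 3605 lower. Leaving out 1 array gave 1870 to 4448 calls over all genes, 4 to 7 among signalling genes and 0 to 4 among peptidases. The peptidase count was 4 with trend and robust eBayes and with either centring. With the replicate number as a block Cck had an adjusted p of 0.0026 and Gast of 0.0884, and 3874 genes were called. The block changed no other call of the genes named beyond Itpr2, Enpep and Zfp316, given above, and Atp4b and Des, given below. The background level by the median of the receptor genes was 2.70, which puts Gast and Cckbr above it in both groups and Cckar above it only in non-EGFP cells. Signs turned for small uncalled differences: with arrays centred on all probe sets, Cpd (-0.12), Prkce (-0.029), Tpp2 (-0.043) and Fos (-0.18). With centring on named probe sets they were Ctsl (-0.081), Cpd (-0.23), Prkce (-0.15), Tpp2 (-0.16), Fos (-0.30), Jun (-0.040) and Usf2 (-0.063). With the mean of probe sets they were Ctsl (-0.12), Prkce (-0.11) and Tpp2 (-0.54), and Apoa1 turned to 0.0064 with array weights and 0.042 with the second quantile normalization. Leaving out 1 array turned Ctsl (-0.27 to 1.17), Cpd (-0.039 to 0.36), Prkce (-0.015 to 0.36), Sp1 (-0.16 to 0.04) and Apoa1 (-0.046 to 0.036). With either centring Dbi, Anpep, Enpep, Gna11, Itpr2, Sox10, Acta2, Cela3b, Cela2a and Atp4a passed as lower, and with centring on named probe sets Spink1, Fabp2, Nos1, Nfxl1, Gsn and Dnttip1 did as well. The cause of these changes was not tested.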

Other observations

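Among the marker lists, Pgc, the pepsinogen C gene counted here as a gastric marker, read 11.49, 11.91 and 11.22 in CCK-EGFP cells and 4.39, 4.62 and 4.74 in non-EGFP cells. It was at least 123-fold higher by the background level (limma adjusted p = 0.000104) and ranked 16th of all genes by size of difference. Atp4b, the beta subunit of the proton pump, was lower, with a log2 difference of -0.82 (limma adjusted p = 0.027). That call was lost under the replicate block (0.0545), with trend and robust eBayes (0.0762) and in 5 of 6 fits without 1 array (up to 0.0941), all but the one without non-EGFP replicate 3. Gkn2 was lower with both means below background (limma adjusted p = 0.0393), a call lost with the second quantile normalization (0.0717) and in 5 of 6 fits without 1 array (up to 0.116), all but the one without non-EGFP replicate 3. Hdc, the histamine-forming enzyme, differed by 0.89 (limma adjusted p = 0.23) and passed without non-EGFP replicate 2 (0.0419). Of the 10 gastric markers measured, 1 was higher, 2 lower and 7 not past the test (limma, with 1 higher and 4 lower at an unadjusted p under 0.05). Beside this and the marker counts that follow, 14.0% of all genes were called higher and 10.2% lower. At an unadjusted p under 0.05 the shares of all genes were 19.7% higher and 21.0% lower.

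Ret, the receptor for GDNF-family ligands and a marker of enteric neurons, read 11.34, 10.75 and 10.08 against 3.86, 5.45 and 4.01, at least 69.8-fold higher by the background level (limma adjusted p = 0.000717). Of the 8 neuron and glia markers measured, 2 were higher, 0 lower and 6 not past the test (limma, with 5 lower at an unadjusted p under 0.05). The other higher gene was Gfap, at 4.69 against 3.45, near the background level, a call lost without CCK-EGFP replicate 1 or 2 (limma adjusted p = 0.0591 and 0.0655) and with the mean of probe sets (0.283). Sox10 (4.38 and 5.29) and Nos1 (4.09 and 4.84) did not pass (limma adjusted p = 0.0557 and 0.0997). Sox10 passed as lower with the background filter (limma adjusted p = 0.0487), array weights (0.04), the second quantile normalization (0.0446) and the mean of probe sets (0.0374). It also passed without non-EGFP replicate 1 (limma adjusted p = 0.0434), and Nos1 without non-EGFP replicate 3 (0.0357). Of 6 smooth muscle markers, 1 was lower, Des (-0.82, limma adjusted p = 0.041), and Tagln and Acta2 did not pass (0.121 and 0.0553). Tagln passed as lower without non-EGFP replicate 3 (limma adjusted p = 0.0161). Acta2 did with the second quantile normalization (limma adjusted p = 0.0422) and without CCK-EGFP replicate 1 (0.0441). The Des call was lost under the replicate block (limma adjusted p = 0.0596), with trend and robust eBayes (0.0739), with each probe set tested alone (0.0516), with the mean of probe sets (0.176, at -0.50) and in 5 of 6 fits without 1 array (up to 0.132), all but the one without non-EGFP replicate 3. Of 9 acinar markers 0 were higher and 1, Prss2, was lower (limma adjusted p = 0.022, with 5 lower and 1 higher at an unadjusted p under 0.05). That call was lost with the mean of probe sets (0.0704) and in 5 of 6 fits without 1 array (up to 0.0663), all but the one without non-EGFP replicate 3. Cela1, Cela3b and Cela2a did not pass (0.108, 0.0836 and 0.0945), and Cela1 passed as higher with array weights (limma adjusted p = 0.0475). Of 9 enterocyte markers 0 were higher and 2 lower (limma, with 0 higher and 5 lower at an unadjusted p under 0.05), and Apoa1, Apoa4 and Fabp2, near the top of the scale in both groups, did not pass (0.968, 0.392 and 0.282).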
